A study of Mus musculus with 12 samples.

Results

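The interaction of colistin and 7-hydroxycoumarin (7-HC) was examined in all 12 of the 12 libraries, 3 in each of 4 groups. It was computed for every gene as the colistin effect in the presence of 7-HC (colistin + 7-HC minus 7-HC) minus the colistin effect in its absence (colistin minus control), on log2(FPKM + 0.5) values, where FPKM is the number of fragments scaled to transcript length and library size. A positive value means that the colistin difference was more positive, or less negative, with 7-HC than without it. Testing was limited to genes that reached 1 FPKM in 3 or more of the 12 libraries, which left 10764 of the 17738 genes with values. At the edge of that filter, 179 genes reached 1 FPKM in exactly 3 libraries and 251 in exactly 2.

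All mice were adult Kunming mice, an outbred stock, recorded as female and 6 to 8 weeks old. The control group was given saline, the 7-HC group 50 mg/kg of 7-HC a day, the colistin group 15 mg/kg of colistin a day, and the colistin + 7-HC group both agents at those doses, for 7 days. RNA of tissue labelled kidney was sequenced on a BGI platform, and each library came from 1 mouse. 7-HC was dissolved in dimethyl sulfoxide, which both groups given 7-HC received and the control and colistin groups did not, so within these data an effect of 7-HC and an effect of its vehicle cannot be told apart. Depth could not be recovered from the FPKM values, so the precision of low values is unknown.

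Colistin is a polymyxin antibiotic that disrupts the outer membrane of Gram-negative bacteria and can injure the kidney. 7-HC, also called umbelliferone, is a plant coumarin studied for antioxidant and anti-inflammatory action. Interferons act through receptor-bound kinases and STAT proteins to switch on a large set of antiviral genes. Metallothioneins are small cysteine-rich proteins that bind zinc and copper, and liver raises them in stress and inflammation. Hepatocytes also make the complement proteins of plasma, cholesterol and bile acids, and, in male mice, large amounts of major urinary proteins.

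The tissue label was checked against marker genes before any comparison. All 10 hepatocyte markers were above 1 FPKM in every library, with a median of 5801 FPKM in control, whereas all 7 proximal tubule markers with values stayed at or under 0.16 FPKM and all 7 markers of the loop of Henle, distal tubule and collecting duct at or under 0.26 FPKM. The profile was therefore that of liver genes, against the kidney label. Uty, Eif2s3y, Kdm5d and Ddx3y, which are on the Y chromosome, lay between 1.23 and 24.1 FPKM in all 12 libraries, against the recorded sex. Summed FPKM per library ranged from 517984 to 597354, and 10036 to 10392 genes reached 1 FPKM.

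The colistin effect differed with 7-HC present for 32 of 10764 genes at an adjusted p under 0.05 (0.297%; limma with Benjamini-Hochberg adjustment), 17 with a positive and 15 with a negative interaction. The positive set included interferon-regulated Usp18, the steroid dehydrogenases Hsd3b2 and Hsd3b5, the cell adhesion gene Cdh1 and Bex2. The negative set included both metallothioneins Mt1 and Mt2, the methyltransferase Nnmt, the ecto-enzyme Nt5e, and Tm7sf2 and Pmvk of cholesterol synthesis. The absolute interaction of these genes ran from 0.88 to 4.15 on the log2(FPKM + 0.5) scale. At an unadjusted p under 0.05, 11.5% of tested genes passed, 820 with a positive interaction (7.62%) and 423 with a negative one (3.93%). Scaling libraries by median ratios moved that split to 645 and 595, and quantile normalization to 613 and 648. The median interaction of all tested genes was 0.056, and -0.001 and -0.012 under these scalings, with 10 positive and 14 negative calls under each. A pseudocount of 0.1 left 5 calls, all among the 32, and no filter on low values left 6, of which 4 were among the 32, while array weights gave 207, which held all 32. By comparison, colistin differed from control for 3515 genes (32.7%), colistin + 7-HC from 7-HC for 3349 (31.1%), 7-HC from control for 18 (0.167%) and colistin + 7-HC from colistin for 1 (0.00929%). The last of these counts was 470 without the second colistin library.

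The number of called interactions depended on single libraries. Without the second colistin library 134 genes were called, 101 of them positive, and these held all 32. Without the third control library 23 were called, 13 of them among the 32. Leaving out any other library left 3 or fewer calls: 3 without the first 7-HC library, 2 without the first control library, 1 without the second control library or the first colistin + 7-HC library, and 0 without the second 7-HC, the third 7-HC, the first colistin, the third colistin, the second colistin + 7-HC or the third colistin + 7-HC library, with 976 to 1682 genes at an unadjusted p under 0.05 (limma). The 32 genes kept their sign and an unadjusted p of 0.000534 or less whichever library was left out. They were chosen by p on these same libraries, so that outcome was largely set in advance and lends them no support.

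**Figure D1:**
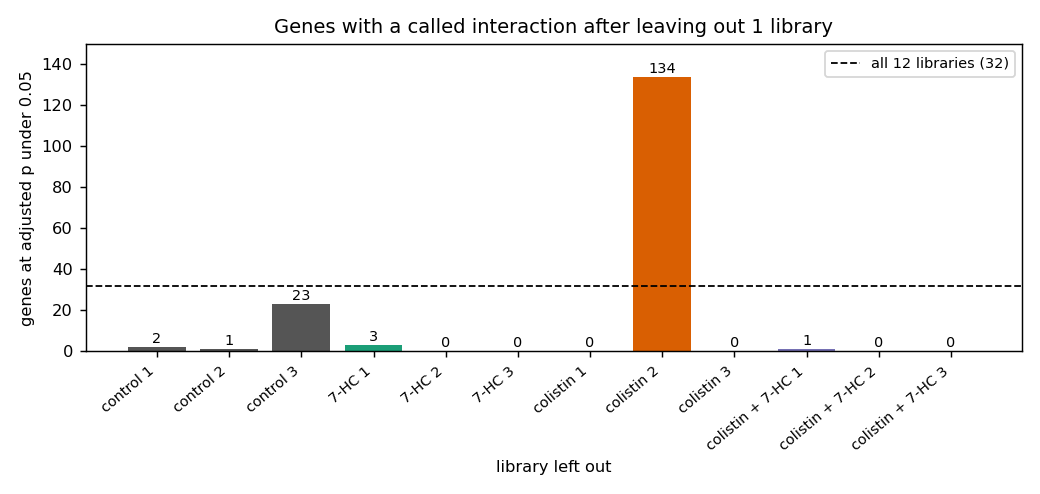
Bars show the number of genes with an interaction at adjusted p under 0.05 (limma) after leaving out the library named on the horizontal axis, and the dashed line the 32 genes called with all 12 libraries. Only the bars without the third control library (23) and the second colistin library (134) stand above 3.

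**Figure D2:**
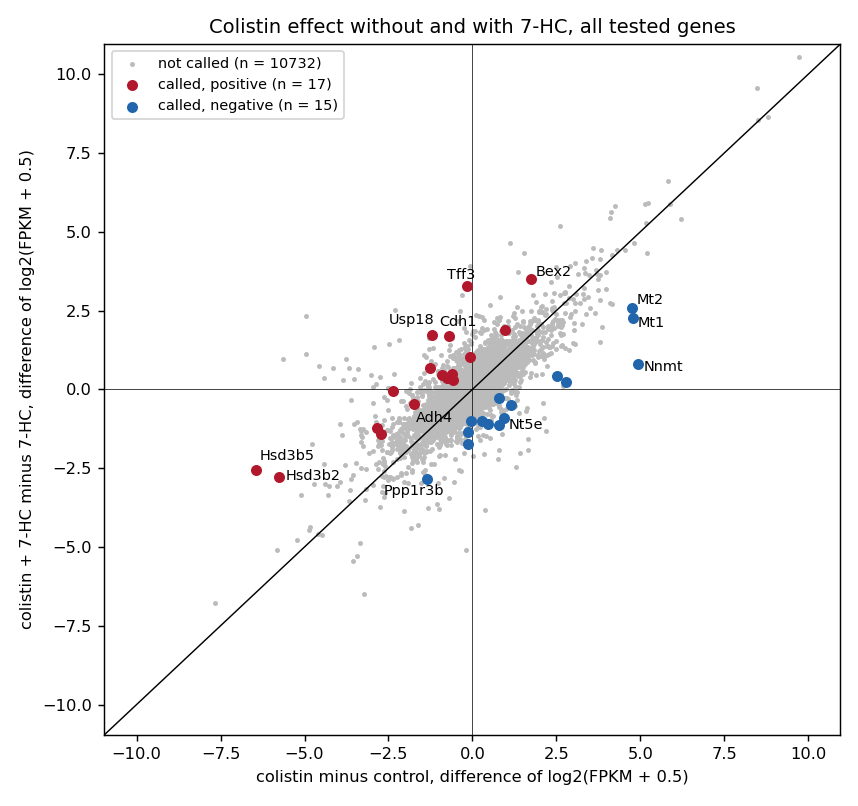
Each point is 1 of 10764 tested genes, with colistin minus control on the horizontal axis and colistin + 7-HC minus 7-HC on the vertical axis, both as differences of log2(FPKM + 0.5), and with a diagonal of equal effects. The 17 red genes (positive interaction) lie above the diagonal and the 15 blue genes (negative interaction) below it.

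The 32 genes differed in which groups stood apart. Of the 17 with a positive interaction, 7 had colistin libraries wholly below the control libraries and colistin + 7-HC libraries wholly above the 7-HC libraries, so that the colistin difference had opposite signs in the absence and presence of 7-HC. By the same measure of libraries that did not overlap, a further 4 were lower with colistin in both settings, 2 were higher in both, 2 were lower only in the absence of 7-HC and 2 were higher only in its presence. Of the 15 with a negative interaction, 4 were above control with colistin alone and below 7-HC with the combination, 4 were higher only in the absence of 7-HC, 4 were lower only in its presence, 2 were higher in both settings and 1 was lower in both. Over all tested genes, colistin libraries lay wholly above control for 18.8% and wholly below for 28.1%, and colistin + 7-HC libraries wholly above 7-HC for 22.1% and wholly below for 24.4%. In 30 of the 32 genes the 7-HC and control libraries did not overlap (5.82% of all tested genes wholly higher and 10.1% wholly lower), and in 25 the colistin + 7-HC and colistin libraries did not overlap (9.91% and 6.99%). These counts describe genes chosen on the same values and carry no test.

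Bex2, an X-linked gene of the brain-expressed X-linked family, had 0.07, 0 and 0.14 FPKM in control, 0.13, 0.06 and 0 in 7-HC, 1.08, 1.44 and 1.74 in colistin and 5.24, 6.17 and 6.23 in colistin + 7-HC. It was near 0 without colistin, and the colistin + 7-HC libraries all lay above the colistin libraries. The interaction of Bex2 was 1.76 ± 0.24 (SE, limma adjusted p = 0.0309). With all 12 libraries Bex2 was also the only gene called between colistin + 7-HC and colistin, by 1.74 (limma adjusted p = 0.00467) on the same scale. The number called in that comparison was 470 without the second colistin library and 101 with array weights. It was 0 without the second or the third colistin + 7-HC library.

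**Figure D3:**
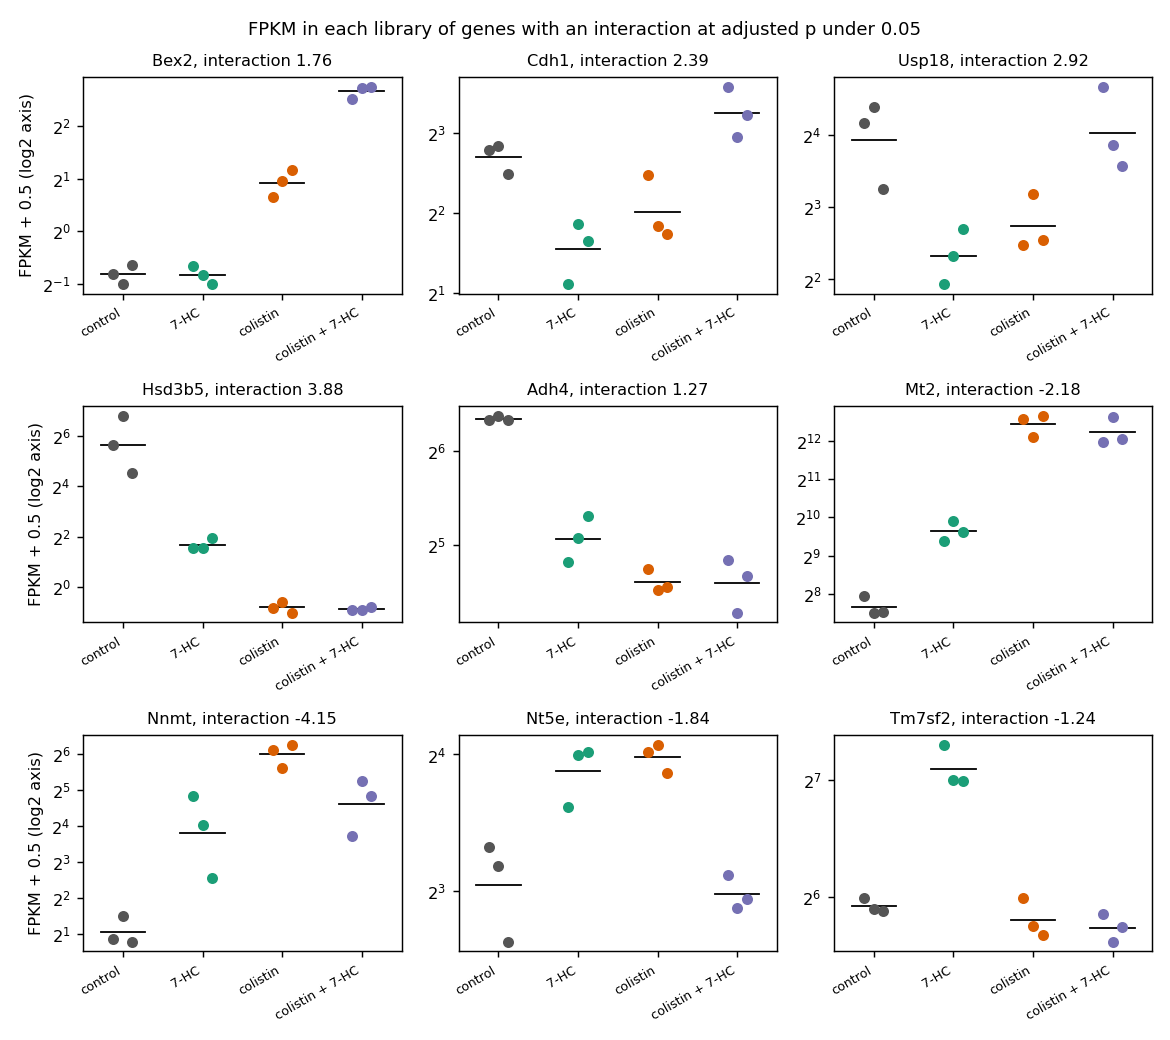
Points show FPKM + 0.5 on a log2 axis in each of 12 libraries for 9 genes with a called interaction, and bars show group means on that scale. Bex2 was highest in all 3 colistin + 7-HC libraries, Adh4 and Hsd3b5 were highest in all 3 control libraries, and Tm7sf2 was highest in all 3 7-HC libraries.

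Cdh1, which encodes the epithelial adhesion protein E-cadherin, had 6.41, 6.66 and 5.09 FPKM in control, 1.67, 3.15 and 2.64 in 7-HC, 5.07, 3.08 and 2.84 in colistin and 11.4, 7.26 and 8.87 in colistin + 7-HC. The 7-HC libraries lay below control and the combined libraries above colistin, with no overlap. The interaction was 2.39 ± 0.34 (SE, limma adjusted p = 0.0309), made up of a colistin difference of -0.68 (adjusted p = 0.0484) without 7-HC and 1.71 (adjusted p = 0.000424) with it. Tff3, a secreted trefoil peptide of mucosal repair, had 3.36, 2.65 and 2.53 FPKM in control, 0.13, 1.28 and 0.54 in 7-HC, 4.98, 1.78 and 1.59 in colistin and 13.1, 11.1 and 6.07 in colistin + 7-HC. All 3 combined libraries were above every other library, and the interaction was 3.43 ± 0.6 (SE, limma adjusted p = 0.0429). Slc6a6, the taurine transporter, had 26.9, 24.5 and 37.1 FPKM in control, 13.2, 18.1 and 16.5 in 7-HC, 8.33, 16.8 and 11.7 in colistin and 30.6, 22.6 and 23.96 in colistin + 7-HC. Its colistin libraries were below control, its combined libraries were above 7-HC, and the interaction was 1.94 ± 0.34 (SE, limma adjusted p = 0.0429).

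Several genes of DNA replication, protein modification and other functions had small positive interactions, and Mcm6, Prim2 and Setd7 were at low levels. Mcm6, a subunit of the replicative helicase, had 2.79, 3.2 and 3.25 FPKM in control, 1.72, 1.9 and 2.47 in 7-HC, 1.47, 1.69 and 1.7 in colistin and 2.8, 2.95 and 2.54 in colistin + 7-HC, and an interaction of 1.13 ± 0.18 (SE, limma adjusted p = 0.0392). Prim2, the large primase subunit, had 2.38, 2.35 and 2.83 FPKM in control, 1.89, 1.53 and 1.38 in 7-HC, 1.32, 1.6 and 1.54 in colistin and 2.37, 2.28 and 2.6 in colistin + 7-HC, and an interaction of 1.08 ± 0.18 (SE, limma adjusted p = 0.0429). In both genes the colistin libraries lay below control and the combined libraries above 7-HC. In the DNA replication and mitosis list 3 of 23 tested members were positive (13%) and 2 negative (8.7%) at an unadjusted p under 0.05. Of all tested genes 7.62% were positive and 3.93% negative, so counts this small do not stand out. The list's median interaction was 0.14. That median was -0.27 with no filter on low values and ran from 0.08 to 0.21 with 1 library left out, the lowest without the second 7-HC library. Smurf1, a ubiquitin ligase of bone morphogenetic protein signalling, had an interaction of 0.88 ± 0.15 (SE, limma adjusted p = 0.0429), and Shank2, a synaptic scaffold protein, one of 1.36 ± 0.19 (SE, limma adjusted p = 0.0309). P2rx4, an ATP-gated ion channel, had 16.2, 20.6 and 16.7 FPKM in control, 15.6, 14.8 and 15.6 in 7-HC, 33.98, 37.5 and 33.7 in colistin and 55.1, 64.8 and 56.4 in colistin + 7-HC. It was higher with colistin in both settings, by 0.96 without and 1.9 with 7-HC, and its interaction was 0.93 ± 0.16 (SE, limma adjusted p = 0.0429). Setd7, a lysine methyltransferase named after its values were seen, had 1.27, 1.21 and 0.91 FPKM in control, 0.73, 0.92 and 0.65 in 7-HC, 1.01, 1.15 and 0.94 in colistin and 2.15, 1.92 and 2.24 in colistin + 7-HC. Its combined libraries were the highest, and the interaction was 1.13 ± 0.2 (SE, limma adjusted p = 0.0429).

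Hsd3b5, Hsd3b2, Nat8f1 and Hectd2 were the 4 genes lower with colistin in both settings without overlap, and in each the 7-HC libraries lay below the control libraries. Hsd3b5, a male-biased liver member of the 3-beta-hydroxysteroid dehydrogenase family, had 48.4, 109 and 22.5 FPKM in control, 2.44, 2.44 and 3.4 in 7-HC, 0.07, 0.17 and 0 in colistin and 0.03, 0.03 and 0.09 in colistin + 7-HC. All 6 colistin-treated libraries were at or under 0.17 FPKM. The interaction of Hsd3b5 was 3.88 ± 0.58 (SE, limma adjusted p = 0.0356), from -6.43 (adjusted p = 1.92e-06) without 7-HC and -2.56 (adjusted p = 0.000985) with it, and its level under colistin lay where the pseudocount of 0.5 sets the fold. Hsd3b2, of the same family, had 77.8, 85.1 and 53.9 FPKM in control, 16.1, 13.7 and 18.2 in 7-HC, 0.47, 1.4 and 0.77 in colistin and 1.88, 1.12 and 3.1 in colistin + 7-HC. It too was highest in control, then in 7-HC, and low in both colistin-treated groups, whose libraries overlapped. The interaction of Hsd3b2 was 2.98 ± 0.43 (SE, limma adjusted p = 0.0309), and reads of such similar family members may be shared between them. Adh4, an alcohol dehydrogenase, had 79.6, 82.3 and 80 FPKM in control, 27.7, 33.2 and 39.1 in 7-HC, 26.4, 22.4 and 22.9 in colistin and 28.1, 18.9 and 24.9 in colistin + 7-HC. Here 7-HC and both colistin groups were below control, and colistin + 7-HC overlapped both 7-HC and colistin. The interaction of Adh4 was 1.27 ± 0.22 (SE, limma adjusted p = 0.0439), from -1.74 (adjusted p = 2.18e-05) without 7-HC and -0.47 (adjusted p = 0.0422) with it, and 7-HC differed from control by -1.28 (adjusted p = 0.00785). Nat8f1, an N-acetyltransferase family member, had an interaction of 1.31 ± 0.22 (SE, limma adjusted p = 0.0429), and Hectd2, a ubiquitin ligase, one of 1.61 ± 0.25 (SE, limma adjusted p = 0.0392). Nudt7, a peroxisomal coenzyme A hydrolase, had 272, 254 and 128 FPKM in control, 58.7, 77.1 and 91.8 in 7-HC, 39.1, 38.9 and 40.8 in colistin and 74.6, 59.9 and 82.5 in colistin + 7-HC. Its control libraries were the highest, its 7-HC and combined libraries overlapped, and the interaction was 2.31 ± 0.37 (SE, limma adjusted p = 0.0392).

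Gene classes were described with 55 lists, of which 4 had a median interaction of 0.5 or more and 2 of -0.5 or less. Interferon-stimulated genes, the antiviral set, had positive interactions nearly throughout. Of 32 tested members, 24 were positive at an unadjusted p under 0.05 and none was negative, against 7.62% and 3.93% of all tested genes, and 1 of 32 (Usp18) passed the adjusted p. Their median interaction was 1.54, between 1.40 and 1.77 under other processing and between 1.27 and 1.95 with 1 library left out. The median difference was -0.19 for colistin against control, 1.19 for colistin + 7-HC against 7-HC and -1.07 for 7-HC against control. At an adjusted p under 0.05, 19 members rose with colistin in the presence of 7-HC and none fell, and 4 rose and 8 fell in its absence. Of all tested genes, 14.5% were higher and 16.6% lower with colistin in the presence of 7-HC, and 12.7% higher and 19.9% lower in its absence.

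Per library, the median log2(FPKM + 0.5) of the 32 interferon-stimulated genes was 3.51, 3.63 and 2.35 in control, 1.93, 2.02 and 2.25 in 7-HC, 3.39, 3.73 and 2.9 in colistin and 4.47, 3.6 and 3.87 in colistin + 7-HC. The 3 7-HC libraries were the lowest of the 12, the third control library lay next to them, and the first colistin + 7-HC library was the highest. The summed level of Kupffer cell and macrophage markers was 221, 335 and 242 FPKM in control, 163, 165 and 138 in 7-HC, 152, 344 and 276 in colistin and 231, 225 and 179 in colistin + 7-HC. The 7-HC libraries and the first colistin library were the lowest of the 12, with 10 of the 14 markers at 1 FPKM or more in every library and none at 0. In bulk tissue, fewer cells of a type and less RNA per cell cannot be told apart, and the part of macrophages in the interferon shift was not tested.

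Usp18, which removes the ubiquitin-like protein ISG15 from its targets and restrains interferon signalling, had 17.4, 20.5 and 9.06 FPKM in control, 3.34, 4.53 and 5.99 in 7-HC, 5.08, 8.58 and 5.35 in colistin and 24.96, 14.02 and 11.5 in colistin + 7-HC. Colistin was below control and colistin + 7-HC above 7-HC, without overlap in either. The interaction of Usp18 was 2.92 ± 0.49 (SE, limma adjusted p = 0.0429). Xaf1, an interferon-induced regulator of apoptosis, had 8.87, 10.3 and 4.07 FPKM in control, 2.98, 2.51 and 2.24 in 7-HC, 5.58, 6.79 and 5.56 in colistin and 20.2, 9.32 and 7.66 in colistin + 7-HC. The 7-HC libraries were the lowest, and the interaction was 2.21 ± 0.5 (SE, limma adjusted p = 0.104). Iigp1, an immunity-related GTPase acting on intracellular pathogens, had 146, 196 and 94.2 FPKM in control, 70.9, 58.6 and 85.7 in 7-HC, 118, 141 and 102 in colistin and 209, 172 and 165 in colistin + 7-HC. Its combined and 7-HC libraries did not overlap, and the interaction was 1.57 ± 0.34 (SE, limma adjusted p = 0.104). Ddx58, the viral RNA sensor RIG-I, had an interaction of 1.4 ± 0.34 (SE, limma adjusted p = 0.137), and Irf7, a transcription factor of interferon induction, one of 2.41 ± 0.63 (SE, limma adjusted p = 0.164).

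Promoter stretches of interferon-stimulated genes are shown because many of them share 1 short repeat. The stretches are from RefSeq (GRCm38.p6), 5′ to 3′ on the gene's strand, and end at the base before the start. They were chosen, after the values were seen, as members with a positive interaction at an unadjusted p under 0.05 and the word GAAA repeated in the same direction after any 2 bases, on either strand, wholly within the 150 bases shown. Capitals mark the repeated word with its gap, and overlapping copies run together. All 7 such members whose stretch lay outside the gene's annotated span are shown: the GTPases Irgm2, Igtp, Gbp7 and Irgm1, the ubiquitin-like Isg15, the RNA-binding Ifit1 and Bst2, which tethers budding viruses. Their interactions on the log2(FPKM + 0.5) scale were 1.47, 1.57, 1.79, 1.12, 2.77, 3.52 and 0.83 in that order, and none passed the adjusted p.
Irgm2: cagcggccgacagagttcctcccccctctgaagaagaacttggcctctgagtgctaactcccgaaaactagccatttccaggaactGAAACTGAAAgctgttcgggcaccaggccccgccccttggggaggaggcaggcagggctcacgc
Igtp: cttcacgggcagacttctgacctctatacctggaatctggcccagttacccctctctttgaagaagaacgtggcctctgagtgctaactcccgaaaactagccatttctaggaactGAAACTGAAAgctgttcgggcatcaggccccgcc
Gbp7: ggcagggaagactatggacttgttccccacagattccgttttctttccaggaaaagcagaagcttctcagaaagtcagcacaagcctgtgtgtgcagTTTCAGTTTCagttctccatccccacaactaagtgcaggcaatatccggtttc
Irgm1: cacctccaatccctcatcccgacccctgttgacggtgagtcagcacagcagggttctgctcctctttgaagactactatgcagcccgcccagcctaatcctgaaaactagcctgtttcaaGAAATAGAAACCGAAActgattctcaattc
Isg15: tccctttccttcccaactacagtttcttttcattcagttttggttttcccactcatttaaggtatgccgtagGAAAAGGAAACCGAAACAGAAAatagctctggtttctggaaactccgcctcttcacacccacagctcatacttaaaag
Ifit1: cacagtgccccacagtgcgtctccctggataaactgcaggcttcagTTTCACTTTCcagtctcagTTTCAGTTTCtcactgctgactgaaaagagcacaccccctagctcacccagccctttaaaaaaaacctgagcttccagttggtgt
Bst2: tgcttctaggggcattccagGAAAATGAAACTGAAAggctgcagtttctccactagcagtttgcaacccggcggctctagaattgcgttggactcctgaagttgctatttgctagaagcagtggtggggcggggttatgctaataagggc

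The Irgm2 stretch lies at chr11:58214827-58214976 on the plus strand and the Igtp stretch at chr11:58199406-58199555 on the plus strand. The Gbp7 stretch is at chr3:142530186-142530335 on the plus strand, the Isg15 stretch at chr4:156200819-156200968 on the minus strand and the Ifit1 stretch at chr19:34640739-34640888 on the plus strand. The Irgm1 stretch is at chr11:48871421-48871570 and the Bst2 stretch at chr8:71537473-71537622, both on the minus strand. The repeat began 64 bases before the start in Irgm2, 34 in Igtp and 53 in Gbp7, while Isg15 held 3 overlapping copies and Irgm1, Ifit1 and Bst2 held 2 each. RefSeq windows of 300 bases (250 before and 50 after the start) were found for 26 of the 32 tested members, and 15 of the 26 held the repeat in at least 1 window (57.7%). Over all 32851 promoter windows 3.44% held it, and of the 31 windows of these members 48.4%. The repeat resembles the interferon-stimulated response element, but a match describes letters and not binding.

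Mt1 and Mt2, the metallothioneins expressed in liver, were both in the negative set. Mt2 had 249, 184 and 185 FPKM in control, 668, 955 and 794 in 7-HC, 5992, 4338 and 6394 in colistin and 4016, 6313 and 4226 in colistin + 7-HC. Mt1 had 269, 178 and 373 FPKM in control, 1093, 1588 and 963 in 7-HC, 6817, 6767 and 7885 in colistin and 5246, 7159 and 4943 in colistin + 7-HC. In both genes every 7-HC library was above every control library, and all 6 colistin-treated libraries were far above both, with colistin and colistin + 7-HC overlapping. The interaction was -2.18 ± 0.33 (SE, limma adjusted p = 0.0356) for Mt2 and -2.5 ± 0.38 (SE, limma adjusted p = 0.0392) for Mt1. Colistin raised Mt2 by 4.75 (adjusted p = 3.27e-07) without 7-HC and by 2.57 (adjusted p = 2.24e-05) with it, and 7-HC alone differed from control by 1.97 (adjusted p = 0.00723), all on the log2(FPKM + 0.5) scale. Of the 10 tested genes for metallothioneins and zinc transport, these were the only 2 negative at an unadjusted p under 0.05. Among all tested genes 3.93% were negative and 7.62% positive. Slc39a4, an intestinal-type zinc importer, was the only positive one, with an interaction of 0.86 ± 0.21 (SE, limma adjusted p = 0.147).

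The promoter stretch of Mt2 is shown as that of 1 of the 2 called metallothioneins. It is at chr8:94172468-94172617 on the plus strand (RefSeq, GRCm38.p6), and capitals mark TGCACNC or TGCGCNC on either strand, the core of metal response elements bound by the zinc sensor MTF-1. These words occur in 25.7% of all 32851 promoter windows, so that a match alone is common.
Mt2: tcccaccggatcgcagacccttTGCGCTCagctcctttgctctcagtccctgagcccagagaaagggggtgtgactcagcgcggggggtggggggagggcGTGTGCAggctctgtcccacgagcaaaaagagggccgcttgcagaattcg

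In Nnmt, Nt5e and Crat the combined libraries lay below the colistin libraries. Nnmt, which methylates nicotinamide, had 1.31, 2.33 and 1.24 FPKM in control, 28.1, 15.8 and 5.45 in 7-HC, 67.9, 48.7 and 75.8 in colistin and 12.7, 37.6 and 28.02 in colistin + 7-HC. All 7-HC libraries were above control, and the third was the lowest of them. The interaction of Nnmt was -4.15 ± 0.73 (SE, limma adjusted p = 0.0429), the most negative of the called genes. Nt5e, the ecto-enzyme CD73 that makes adenosine from AMP, had 9.5, 8.58 and 5.67 FPKM in control, 11.8, 15.4 and 15.7 in 7-HC, 15.7, 16.3 and 14.1 in colistin and 8.15, 6.8 and 7.17 in colistin + 7-HC. Each agent alone was above control, while the combined libraries lay within the control range, and the interaction was -1.84 ± 0.25 (SE, limma adjusted p = 0.0309). Crat, carnitine acetyltransferase, had 17.8, 20.6 and 19 FPKM in control, 32.5, 37.9 and 31.5 in 7-HC, 26.7, 22.6 and 30.3 in colistin and 22.1, 12.6 and 13.2 in colistin + 7-HC. Each agent alone was again above control, but the combined libraries of Crat reached from below to above the control range. The interaction was -1.56 ± 0.27 (SE, limma adjusted p = 0.0429).

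Sult3a2, a sulfotransferase, had 0.21, 0 and 0 FPKM in control, 0.41, 0.42 and 0.34 in 7-HC, 4.9, 3.16 and 2.47 in colistin and 0.2, 1.01 and 0.6 in colistin + 7-HC. Dntt, the template-independent DNA polymerase of lymphocytes, had 0.31, 0.58 and 0.24 FPKM in control, 0.8, 1.23 and 0.73 in 7-HC, 3.68, 5.92 and 4.01 in colistin and 1.82, 1.48 and 0.97 in colistin + 7-HC. Both were highest in the colistin libraries, with interactions of -2.55 ± 0.41 (SE, limma adjusted p = 0.0392) and -2.09 ± 0.33 (SE, limma adjusted p = 0.0392). Ppp1r3b, the glycogen-targeting subunit of protein phosphatase 1, had 20.5, 18.4 and 19.6 FPKM in control, 23.02, 33.7 and 34.2 in 7-HC, 7.49, 8.34 and 6.38 in colistin and 4.64, 3.14 and 3.5 in colistin + 7-HC. It was lower with colistin in both settings and lowest in the combined libraries, and the interaction was -1.5 ± 0.25 (SE, limma adjusted p = 0.0416). Ropn1l, a sperm flagellar protein gene, had 8.53, 7.8 and 8.84 FPKM in control, 16.9, 14.8 and 16.1 in 7-HC, 7.75, 8.3 and 8.5 in colistin and 7.61, 7.75 and 7.79 in colistin + 7-HC, so that the 7-HC libraries alone stood apart, with an interaction of -0.96 ± 0.13 (SE, limma adjusted p = 0.0309). Slc45a3, a sugar transporter, had an interaction of -1.91 ± 0.33 (SE, limma adjusted p = 0.0429), and Tnfaip8l1, of the TNFAIP8 family, one of -1.61 ± 0.28 (SE, limma adjusted p = 0.0429). The uncharacterised 2010003K11Rik and Gm5617 had interactions of -1.65 ± 0.27 (SE, limma adjusted p = 0.0392) and -1.27 ± 0.22 (SE, limma adjusted p = 0.0429).

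Cholesterol synthesis and uptake genes had negative interactions throughout. All 25 tested members were below 0, with a median of -0.76. At an unadjusted p under 0.05, 11 of 25 were negative and none positive, against 3.93% and 7.62% of all tested genes. The median colistin difference was 1.03 without 7-HC and 0.70 with it, and 16 and 13 members rose at an adjusted p under 0.05, with 0 and 2 that fell, beside 12.7% and 14.5% of all tested genes higher and 19.9% and 16.6% lower. Per library, the median log2(FPKM + 0.5) of the list was 4.53, 3.94 and 3.85 in control, 4.03, 4.82 and 4.88 in 7-HC, 5.99, 5.46 and 5.57 in colistin and 5.45, 5.0 and 5.39 in colistin + 7-HC. The first control and first 7-HC libraries stood apart from the others of their groups. The count at an unadjusted p under 0.05 was 7 without the second control, the third 7-HC, the first colistin or the second colistin + 7-HC library.

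Tm7sf2, a sterol reductase, had 63.03, 59.2 and 58.4 FPKM in control, 157, 127 and 127 in 7-HC, 63.01, 53.4 and 50.6 in colistin and 57.2, 48.6 and 53.04 in colistin + 7-HC. Only the 7-HC libraries stood apart, and the interaction was -1.24 ± 0.18 (SE, limma adjusted p = 0.0309). Pmvk, phosphomevalonate kinase, had 22.9, 18.1 and 20.7 FPKM in control, 36.8, 37.1 and 31.2 in 7-HC, 36.1, 35.5 and 35.1 in colistin and 31.4, 30.6 and 24.6 in colistin + 7-HC. It was higher with either agent, and the interaction was -1.06 ± 0.18 (SE, limma adjusted p = 0.0429). Fdps, which makes farnesyl pyrophosphate, had 60.9, 53.2 and 34.98 FPKM in control, 86.2, 118 and 98.02 in 7-HC, 371, 296 and 281 in colistin and 280.19, 233 and 278 in colistin + 7-HC. It rose with colistin in both settings, by 2.68 and 1.39, and the interaction was -1.29 ± 0.29 (SE, limma adjusted p = 0.104). Ebp, a sterol isomerase, and Dhcr7, which makes cholesterol from 7-dehydrocholesterol, had interactions of -0.73 ± 0.15 (SE, limma adjusted p = 0.0864) and -1.15 ± 0.41 (SE, limma adjusted p = 0.292).

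**Figure D4:**
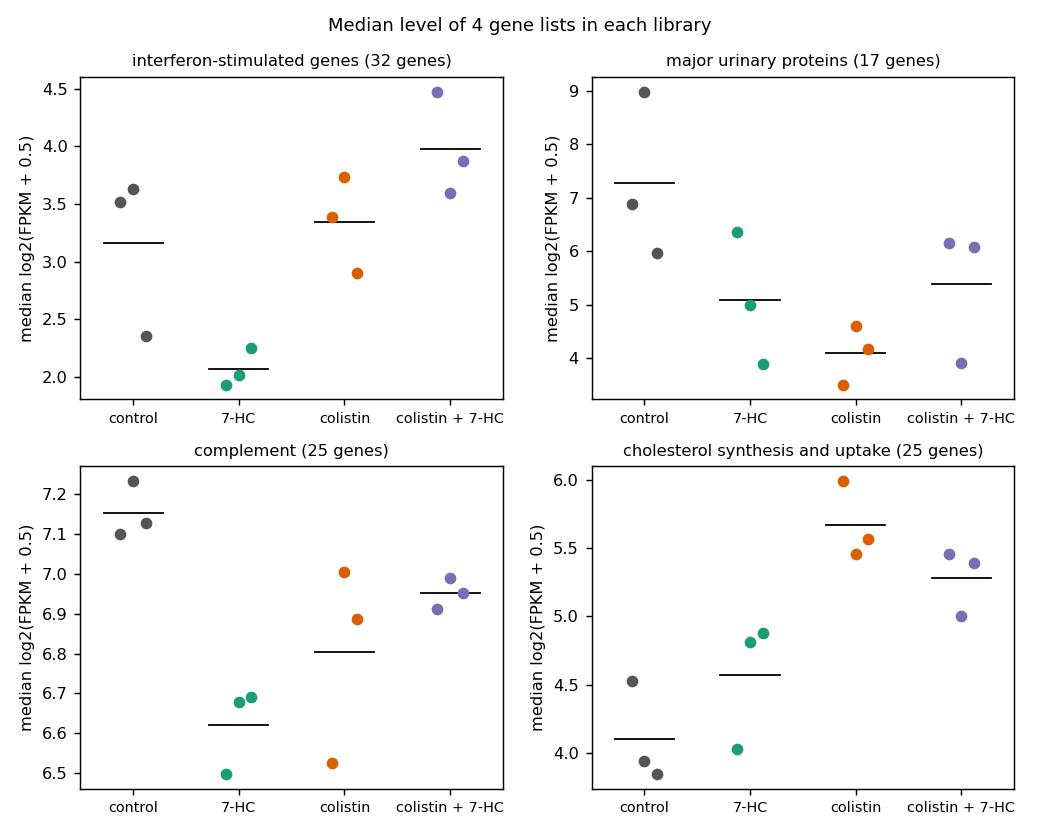
Points show the median log2(FPKM + 0.5) of the tested members of 4 gene lists in each library, and bars show the mean of the 3 points. The interferon-stimulated genes are lowest in the 7-HC libraries, and the cholesterol genes are highest in the colistin and combined libraries.

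Complement genes, the plasma proteins that tag and lyse microbes, leaned positive. Of 25 tested members, 12 were positive at an unadjusted p under 0.05 and none negative, against 7.62% and 3.93% of all tested genes. Their median interaction was 0.55. At an adjusted p under 0.05, 14 members rose with colistin and 2 fell in the presence of 7-HC, and 6 rose and 5 fell in its absence. Over all tested genes those shares were 14.5% and 16.6% in its presence and 12.7% and 19.9% in its absence, so that 5 of 25 falling is near the background. The count at an unadjusted p under 0.05 was 7 without the second control or the first colistin + 7-HC library. C8a, a subunit of the membrane attack complex, had 159, 194 and 148 FPKM in control, 91.04, 86.8 and 103 in 7-HC, 179.84, 182 and 197 in colistin and 195, 191 and 203 in colistin + 7-HC. The 7-HC libraries alone were low, and the interaction was 0.9 ± 0.18 (SE, limma adjusted p = 0.0728). C8b, of the same complex, and Hc, complement component C5, had interactions of 1.57 ± 0.35 (SE, limma adjusted p = 0.104) and 0.8 ± 0.17 (SE, limma adjusted p = 0.0889). C9, the pore-forming subunit, had 87.8, 134 and 93.1 FPKM in control, 29.5, 39.01 and 85.9 in 7-HC, 31.4, 27.4 and 38.7 in colistin and 56.2, 49.4 and 29.8 in colistin + 7-HC, with 7-HC libraries that spread widely, and an interaction of 1.58 ± 0.5 (SE, limma adjusted p = 0.251). The acute-phase protein Crp had 165, 196 and 165 FPKM in control, 163, 134 and 142 in 7-HC, 391, 398 and 477 in colistin and 869, 655 and 602 in colistin + 7-HC. It rose with colistin in both settings, and the interaction was 1.0 ± 0.23 (SE, limma adjusted p = 0.107). The positive acute phase list as a whole had a median interaction of 0.25, beside 0.056 over all tested genes. Of its 30 tested members 19 were above 0 and 11 below. At an unadjusted p under 0.05, 1 was positive (3.33%) and 2 were negative (6.67%), against 7.62% and 3.93% of all tested genes.

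Major urinary protein genes, which encode male-biased pheromone carriers made by liver, had the largest median interaction of the 55 pathway lists, 4.05 over 17 tested members. Of these members, 15 were positive at an unadjusted p under 0.05, against 7.62% of all tested genes, and none passed the adjusted p. They are near-identical copies that can share reads, so they count as fewer than 17 independent genes. The summed level of all 21 listed members was 35315, 42812 and 7461 FPKM in control, 9582, 3251 and 2559.57 in 7-HC, 1294, 4828 and 1357 in colistin and 7272, 2256 and 5085 in colistin + 7-HC. The first and second control libraries were far above the third. Mup9 had 4205, 5157 and 709.8 FPKM in control, 661, 163 and 119.61 in 7-HC, 84.3, 368 and 88.6 in colistin and 697, 164 and 477 in colistin + 7-HC. Its interaction was 4.84 ± 1.27 (SE, limma adjusted p = 0.166), and that of Mup20, the protein darcin, was 3.26 ± 0.89 (SE, limma adjusted p = 0.183). Leaving out 1 library moved the list's median between 3.40 and 5.05.

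Other sex-biased liver genes were divided. Of the 21 tested sex-biased liver genes 6 were positive and 2 negative at an unadjusted p under 0.05, against 7.62% and 3.93% of all tested genes. Their median was 0.01, which changed sign under several settings. Cyp4a12a, a fatty acid hydroxylase, had 129.96, 276 and 74.5 FPKM in control, 63.8, 11.3 and 47.1 in 7-HC, 31.7, 23.9 and 18.7 in colistin and 159.61, 39.7 and 109.94 in colistin + 7-HC. The colistin libraries were below control and the interaction was 3.93 ± 0.95 (SE, limma adjusted p = 0.135). Slco1a1, an organic anion transporter, had 119, 54.7 and 64.7 FPKM in control, 42.3, 34.6 and 49.8 in 7-HC, 1.95, 8.79 and 5.44 in colistin and 12.1, 14.6 and 19.6 in colistin + 7-HC, and an interaction of 2.45 ± 0.6 (SE, limma adjusted p = 0.139). The median of the growth hormone, STAT5 and IGF list was 0.24, and 0.13 without the first and 0.36 without the third 7-HC library. At an unadjusted p under 0.05, 5 of its 16 genes were positive and none negative, beside the same shares of all tested genes. Among them Igfbp2, which binds insulin-like growth factors, had 444, 447 and 639 FPKM in control, 432, 313 and 284 in 7-HC, 48.7, 126 and 48.3 in colistin and 213, 183 and 168 in colistin + 7-HC. Without 7-HC it fell by 2.9 (adjusted p = 9.11e-05) with colistin, and the interaction was 2.05 ± 0.46 (SE, limma adjusted p = 0.104). Socs2 and Bcl6, which both restrain STAT5 signalling, had interactions of 1.57 ± 0.56 (SE, limma adjusted p = 0.301) and 1.33 ± 0.39 (SE, limma adjusted p = 0.215).

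Drug and bile acid metabolism lists differed in how many members passed. Of 24 glucuronosyl- and sulfotransferases, which conjugate drugs and bilirubin for excretion, 10 were positive and 2 negative at an unadjusted p under 0.05. Of all tested genes 7.62% were positive and 3.93% negative. The list's median was 0.55, and 0.27 without the first and 0.33 without the third colistin library. Ugt2b35 had 55.8, 64.97 and 89.9 FPKM in control, 30.3, 27.5 and 28.7 in 7-HC, 97.2, 157 and 117 in colistin and 155, 129 and 144 in colistin + 7-HC. It was lowest in the 7-HC libraries, and the interaction was 1.47 ± 0.28 (SE, limma adjusted p = 0.0619). Ugt1a1, the bilirubin glucuronosyltransferase, had 167, 118 and 166 FPKM in control, 115, 142 and 174 in 7-HC, 23.4, 39.3 and 24.8 in colistin and 71.7, 55.8 and 71.5 in colistin + 7-HC. It fell with colistin in both settings, and the interaction was 1.27 ± 0.32 (SE, limma adjusted p = 0.152), but Ugt1a genes share exons, so reads may be divided between them. Sult2a8, a bile acid sulfotransferase, had 254, 264 and 158 FPKM in control, 171, 129 and 221 in 7-HC, 12.2, 30.8 and 27.01 in colistin and 62.3, 53.05 and 69.8 in colistin + 7-HC, and an interaction of 1.85 ± 0.46 (SE, limma adjusted p = 0.15).

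Of 30 bile acid synthesis and transport genes, 9 were positive at an unadjusted p under 0.05 and none negative, against 7.62% and 3.93% of all tested genes. Their median was 0.46, and 0.23 without the first colistin library. Nr0b2, the nuclear receptor SHP that represses bile acid synthesis, had 65, 23.2 and 53.5 FPKM in control, 32.6, 12.5 and 17.2 in 7-HC, 5.6, 4.83 and 5.92 in colistin and 8.93, 7.62 and 11.2 in colistin + 7-HC. It fell with colistin without 7-HC, and the interaction was 1.85 ± 0.53 (SE, limma adjusted p = 0.212). Abcg8, a subunit of a sterol exporter, and Slc51b, a bile acid exporter subunit, had interactions of 1.45 ± 0.42 (SE, limma adjusted p = 0.213) and 1.6 ± 0.35 (SE, limma adjusted p = 0.103). Of 39 Cyp1, Cyp2 and Cyp3 oxidases 9 were positive and 2 negative, and of 17 carboxylesterases 5 were positive and none negative, with medians of 0.27 and 0.32. The first of these medians was 0.14 without the first colistin library, 0.65 without the second control library and 0.56 without the second colistin library, and 0.47 among genes at 1 FPKM in every library. The second was 0.20 without the first control library, 0.14 without the first colistin library and 0.08 without the third colistin + 7-HC library. Of 22 glutathione transferases 1 was positive (4.55%) and of 27 alcohol and aldehyde dehydrogenases 2 were positive (7.41%), with none negative in either list. Neither share was above the 7.62% of all tested genes, so neither count stands out. Of 18 organic ion and peptide transporters 3 were positive and 4 negative.

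Fuel metabolism and stress lists leaned the other way or were divided, except that the amino acid stress list held more positive than negative members. Of 30 fatty acid oxidation genes 6 were negative at an unadjusted p under 0.05 and none positive, against 3.93% and 7.62% of all tested genes. Their median was -0.21, and -0.09 without the second colistin library and -0.12 without the third 7-HC or the second colistin + 7-HC library. Of 23 PPAR alpha targets, 2 were positive and 4 negative. Pdk4, a kinase that inhibits pyruvate dehydrogenase, had 0.78, 1.65 and 0.71 FPKM in control, 3.13, 2.37 and 5.98 in 7-HC, 2.03, 1.07 and 2.07 in colistin and 0.67, 1.26 and 0.82 in colistin + 7-HC. The 7-HC libraries were the highest, and the interaction was -2.08 ± 0.46 (SE, limma adjusted p = 0.104). Fgf21, a fasting and stress hormone of liver, had 4.12, 1.29 and 0.94 FPKM in control, 3.12, 1.95 and 3.37 in 7-HC, 33.01, 38.8 and 24.1 in colistin and 13.3, 3.92 and 12.6 in colistin + 7-HC. It rose with colistin in both settings, and the interaction was -2.29 ± 0.68 (SE, limma adjusted p = 0.223). G6pc, glucose-6-phosphatase, had 259, 135 and 60.7 FPKM in control, 261, 180.38 and 306 in 7-HC, 7.34, 31.7 and 9.79 in colistin and 3.25, 2.04 and 1.58 in colistin + 7-HC. With colistin it fell by 3.23 in the absence of 7-HC and fell by 6.49 in its presence, and the interaction was -3.26 ± 0.79 (SE, limma adjusted p = 0.135).

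Of 33 ATF4 targets and tRNA synthetases, the amino acid stress genes, 8 were positive and 3 negative at an unadjusted p under 0.05. Of all tested genes 7.62% were positive and 3.93% negative. The list's median was 0.31, and 0.06 without the second colistin library and 0.11 without the third colistin + 7-HC library. Mars and Yars, the methionyl and tyrosyl tRNA synthetases, had interactions of 0.74 ± 0.17 (SE, limma adjusted p = 0.104) and 0.67 ± 0.21 (SE, limma adjusted p = 0.243), while the stress cytokine Gdf15 had -1.48 ± 0.33 (SE, limma adjusted p = 0.104). Of 22 cytosolic heat shock genes 4 were negative and none positive, with a median of -0.53, which was -0.17 with array weights, -0.29 without the second colistin library and -0.35 without the first 7-HC library. That count ran from 2 to 10 with 1 library left out: 10 without the second 7-HC and 9 without the second control library. Bag3, a chaperone regulator, had 9.61, 14.8 and 9.03 FPKM in control, 12.7, 9.32 and 10.8 in 7-HC, 23.4, 23.8 and 17.8 in colistin and 11.5, 14.2 and 12.2 in colistin + 7-HC. It rose with colistin without 7-HC, by 0.95 (adjusted p = 0.00317), and the interaction was -0.75 ± 0.27 (SE, limma adjusted p = 0.314).

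Markers of vessels and blood had negative or divided interactions. Of 12 sinusoidal endothelium markers all 12 were below 0, with a median of -0.56. At an unadjusted p under 0.05, 5 of the 12 were negative, against 3.93% of all tested genes. The summed level of the 12 markers was 145, 174 and 144 FPKM in control, 190.45, 165 and 172 in 7-HC, 135, 183 and 164 in colistin and 125, 111 and 125 in colistin + 7-HC. The combined libraries were the lowest of the 12, with 11 of the 12 markers at 1 FPKM or more in every library and none at 0. Of 11 hemoglobin and erythroid genes 3 were negative and none positive, with a median of -0.18 that turned positive under several settings, and the summed level of the list was 999, 997 and 827 FPKM in control, 2189, 3376 and 1192 in 7-HC, 452, 770.02 and 255 in colistin and 182, 169.54 and 209 in colistin + 7-HC. Hba-a1, an alpha-globin gene, had 582, 512 and 454 FPKM in control, 1249, 2003 and 688 in 7-HC, 253, 443 and 133 in colistin and 87.8, 96.1 and 106 in colistin + 7-HC. Its levels were highest in 7-HC and lowest in the combined libraries, and the interaction was -2.57 ± 0.59 (SE, limma adjusted p = 0.11), with reads that may be shared with its near-identical copy Hba-a2. The part of blood and endothelial cell content in these values was not tested.

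Further lists differed in how many members passed an unadjusted p under 0.05. None of 45 oxidative phosphorylation genes and none of 32 NF-kB and cytokine genes passed an unadjusted p under 0.05 (limma), with medians of -0.003 and -0.04 that both changed sign under several settings. Of 39 Nrf2 pathway genes, the antioxidant response, 3 were positive (7.69%) and 2 negative (5.13%), near the 7.62% and 3.93% of all tested genes. Their median was 0.09, and ran from -0.02 without the first colistin library to 0.28 without the second. Nfe2l2, which encodes Nrf2, had an interaction of -0.13 ± 0.26 (SE, limma adjusted p = 0.902), and Gclc, which begins glutathione synthesis, 1.15 ± 0.24 (SE, limma adjusted p = 0.0864). Hmox1, heme oxygenase 1, had 13.9, 16.5 and 14.9 FPKM in control, 13.1, 15 and 14.8 in 7-HC, 179, 228 and 133 in colistin and 110.01, 52.5 and 119 in colistin + 7-HC. It rose with colistin in both settings, and the interaction was -0.91 ± 0.39 (SE, limma adjusted p = 0.404). Of 29 histone deacetylases and acetyltransferases 4 were positive and none negative, with a median of 0.12 that fell as low as 0.04 without the first 7-HC library. Hdac1 had an interaction of 0.12 ± 0.17 (SE, limma adjusted p = 0.849), and Kat2b, an acetyltransferase, 0.85 ± 0.15 (SE, limma adjusted p = 0.0538). Of 16 antigen presentation genes 4 were positive and none negative, with a median of 0.22, which was 0.42 without the third 7-HC library, 0.39 without the second colistin + 7-HC library and 0.13 under quantile normalization. Of 26 coagulation and fibrinolysis genes 5 were positive and 1 negative, and of 20 apolipoproteins 2 were positive and 3 negative.

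In the core clock list 2 of 15 were positive and 1 negative at an unadjusted p under 0.05. The clock output list had 1 of 17 positive and 2 negative. Of all tested genes 7.62% were positive and 3.93% negative, so counts this small do not stand out. The medians of the core clock and clock output lists were 0.19 and 0.11. The core clock median was -0.10 without the first colistin library and -0.01 without the first 7-HC library, and the clock output median ran from 0.03 without the first colistin library to 0.43 without the second. Nr1d1, the clock repressor Rev-erb alpha, had 37.7, 30.8 and 42.7 FPKM in control, 21.1, 12.3 and 13.7 in 7-HC, 10.6, 17.4 and 19.4 in colistin and 41.4, 24.2 and 24.04 in colistin + 7-HC. Its 7-HC and colistin libraries were below control, and the interaction was 2.13 ± 0.39 (SE, limma adjusted p = 0.0587). Dbp, a clock output factor, had 103, 84.9 and 104 FPKM in control, 73.5, 76.98 and 64.1 in 7-HC, 2.68, 53.7 and 11.1 in colistin and 39.1, 54.02 and 67.1 in colistin + 7-HC. Its 3 colistin libraries spread from 2.68 to 53.7 FPKM, and the interaction was 2.51 ± 1.02 (SE, limma adjusted p = 0.371). The time of day at which each mouse was sampled is not given in the sources used here.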

How the data were processed

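RNA of tissue labelled kidney from 12 mice was sequenced, 3 per group. The authors deposited 1 table of expression values estimated with RSEM, 1 per gene and library, which were read as FPKM because they are not whole and their sums differ between libraries; the table names no unit. The submitters' processing notes name HISAT2 2.0.4, Bowtie2 2.2.5, RSEM 1.2.12, DESeq2 1.4.5 and the build GRCm38.p6. Columns of the authors' own comparisons were not used.

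Of 22899 listed genes, 17738 had values and 5161 were blank in every library. FPKM values are not counts, so limma 3.58.1 (R 4.3.3) was fitted to log2(FPKM + 0.5) for the 10764 genes that reached 1 FPKM in 3 or more libraries, with 1 mean per group, an intensity trend and Benjamini-Hochberg adjustment over all tested genes. No count depth was available, so no counting interval is given. Errors are standard errors, and each mouse was 1 replicate. Simulated data with known changes were used to check the code.

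The members, gene lists and tests were chosen with earlier results of these data known. In each direction the 15 genes with the smallest interaction p were named, with up to 6 members of each list with the smallest p (any member of lists of 15 or fewer), genes the study names, and marker genes where a label was checked. Alternatives were other pseudocounts, filters and scalings, a replicate block, robust spread, array weights and each library left out. Promoter sequences were from RefSeq. Figures were drawn with matplotlib 3.10.9 (Python 3.11.15).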

Additional observations from a re-analysis of the deposited data

Results flagged for a closer look

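The test of the interaction itself found a different colistin effect with and without 7-HC for 32 genes (limma, adjusted p under 0.05), and each value below is that difference on the log2(FPKM + 0.5) scale. Positive values were 1.76 for Bex2, 1.36 for Shank2, 2.39 for Cdh1, 2.98 for Hsd3b2, 3.88 for Hsd3b5, 1.61 for Hectd2, 2.31 for Nudt7 and 1.13 for Mcm6. Prim2 had 1.08, Nat8f1 1.31, Usp18 2.92, Slc6a6 1.94, P2rx4 0.93, Smurf1 0.88, Tff3 3.43, Setd7 1.13 and Adh4 1.27. Negative values were -1.84 for Nt5e, -0.96 for Ropn1l, -1.24 for Tm7sf2, -2.18 for Mt2, -2.50 for Mt1, -2.09 for Dntt and -2.55 for Sult3a2. 2010003K11Rik had -1.65, Ppp1r3b -1.50, Gm5617 -1.27, Pmvk -1.06, Slc45a3 -1.91, Nnmt -4.15, Tnfaip8l1 -1.61 and Crat -1.56. Groups of 3 libraries are too small to test a single library as an outlier.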

How the results depend on the processing

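The number of called interactions was 5 with a pseudocount of 0.1, 6 with no filter on low values and 207 with array weights, against 32; it was 36 with a pseudocount of 1, 23 among genes at 1 FPKM in every library, 24 under either scaling (22 shared) and 29 with robust spread. Array weights gave 1894 genes at an unadjusted p under 0.05. For 7-HC against control (18) the count was 11 among genes at 1 FPKM in every library and 163 with array weights. For colistin + 7-HC against colistin (1) it was 0 with a pseudocount of 0.1 or 1 FPKM in every library, 3 with no filter and 101 with array weights. The cause of these changes was not tested.

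With each library left out in turn, called interactions ranged from 0 to 134, genes at an unadjusted p under 0.05 from 976 to 1682, colistin against control from 2495 to 3841, colistin + 7-HC against 7-HC from 2358 to 3603, 7-HC against control from 4 to 62 and colistin + 7-HC against colistin from 0 to 470. Both the 134 and the 470 were reached without the second colistin library.

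Libraries sharing a number gave no sign of pairing, as deviations from group means correlated over 0.1 in 2 of 18 such pairs. With the replicate number as a block, 0 interactions were called by limma, with 1146 at an unadjusted p under 0.05, and 8 genes for 7-HC against control.

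Of 92 named genes 91 kept the sign of the interaction under every setting. Most were named for a small interaction p on these same libraries, so a kept sign was largely set in advance. Nfe2l2 (-0.13) was 0.14 with array weights and ran from -0.26 to 0.042 with 1 library left out. Of 24 list medians 17 kept their sign under every setting. The 3 libraries per group limit which differences could be called.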
